A study of Mus musculus with 6 samples.

Results

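The annexins are a family of proteins that bind acidic phospholipids at the inner face of membranes when calcium rises. They share a repeated core that holds the calcium sites and differ in the N-terminal tail, through which several of them bind S100 proteins and other partners. They are known for linking membranes to each other and to the cytoskeleton, for vesicle traffic and for sealing torn plasma membrane. In fat cells, annexin A2 is known for its part in the traffic of the glucose transporter GLUT4. The family was taken here as the rows of the deposited count table for Anxa1, Anxa2, Anxa3, Anxa4, Anxa5, Anxa6, Anxa7, Anxa8, Anxa9 and Anxa11. All 10 were found among the 24062 gene symbols of the table, all 10 had reads in every library, and all 10 passed the filter on low counts. The 2 other annexins of the table, Anxa10 and Anxa13, had 0 reads in all 6 libraries, which allows a level of up to 0.117 to 0.16 CPM (3 reads in a library; CPM is a gene's reads after scaling all libraries to a common size).

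The RNA was total RNA of brown adipose tissue, the fat depot that makes heat, from male C57BL/6 mice aged 12 weeks. One group was 3 mice labelled FAM195A knockout and the other 3 mice labelled heterozygous, so both groups carried at least 1 disrupted copy. The labels describe FAM195A as a stress granule protein that brown fat needs for making heat in the cold. The labels do not say how the allele was made or at which temperature the mice lived. Reads in genes numbered 22418031 to 25084627 in the knockout-labelled libraries and 18781401 to 20471963 in the heterozygous-labelled ones. Library titles begin with RF in knockout 1 and 2 and heterozygous 1 and 2, and with RE in knockout 3 and heterozygous 3, and the labels do not say what the prefix means. RE stood apart from RF on the second principal component of all tested genes (34.1% of the variance), and log2 differences of the annexins are therefore also given within each prefix. In a fit with genotype and prefix, 3 of 10 annexins (Anxa2, Anxa7 and Anxa11) were called between RE-titled and RF-titled libraries, where 9.35% of all genes tested were called (adjusted p under 0.05, edgeR quasi-likelihood test). All 3 calls were lost without knockout 1, knockout 3 or heterozygous 3.

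The transcript of the targeted gene did not separate the groups. Fam195a, named Mcrip2 in newer annotation, stood at 50.5, 82.0 and 81.3 CPM in knockout 1, 2 and 3 and at 69.0, 70.5 and 103 CPM in heterozygous 1, 2 and 3 (log2 fold change -0.18, SE 0.241). Directions below therefore go by the labels, as knockout-labelled relative to heterozygous-labelled. Adipoq, the adipocyte hormone adiponectin, and Ucp1, the uncoupling protein of brown fat, were abundant in all 6 libraries, with lowest values of 616 CPM for Adipoq and 1647 CPM for Ucp1. Skeletal muscle transcripts were present too and differed between the groups. The 26 muscle markers summed to 4560 to 8013 CPM in the knockout-labelled libraries and to 12797 to 37832 CPM in the heterozygous-labelled ones. All 26 had log2 fold changes below 0. None of them was called between the groups at an adjusted p under 0.05, with edgeR adjusted p from 0.0715 (Neb) to 0.118 (Tcap).

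Anxa4 stood out from the rest of the family. The family was chosen by the difference of Anxa4 in this same comparison, so its difference and those of its relatives are a description of these libraries. Anxa4 encodes a calcium-dependent phospholipid-binding annexin best known from secretory epithelia, where it assembles on membranes and makes them stiffer. The gene lies on the minus strand at chr6:86736840-86793584 (GRCm38, the assembly that mm10 names), and 75 bp of its exons are shared with Gm44036, a long noncoding RNA gene on the plus strand. Anxa4 had 777, 856 and 825 reads in knockout 1, 2 and 3, against 139, 191 and 218 reads in heterozygous 1, 2 and 3. Its level was 34.8, 33.4 and 38.1 CPM in knockout 1, 2 and 3, against 7.41, 9.63 and 10.1 CPM in heterozygous 1, 2 and 3. Every knockout-labelled library lay far above every heterozygous-labelled one. The SD of log2 CPM (0.5 CPM added) was 0.0953 in the knockout-labelled libraries and 0.225 in the heterozygous-labelled ones. The median SD within groups over all genes tested was 0.236, so only the knockout-labelled values lay closer together than is usual here.

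The mean Anxa4 level was 35.4 ± 2.4 CPM in knockout-labelled libraries and 9.03 ± 1.42 CPM in heterozygous-labelled ones (SD, n = 3 each), a log2 fold change of 1.97 (SE 0.164, 95% interval 1.59 to 2.35) or 3.92-fold. It had the lowest p among the 13300 genes tested and held rank 30 by log2 fold change, counted from the highest. Within the RF-titled libraries the log2 difference was 1.95 and in the RE-titled pair 1.87 (1 library per group, 0.5 CPM added), so the difference was nearly the same size in both. Leaving out 1 library at a time moved the log2 fold change between 1.85 (without heterozygous 1) and 2.06 (without heterozygous 3). At an adjusted p of 0.05 over all genes tested (edgeR quasi-likelihood test, Benjamini-Hochberg), Anxa4 was called (adjusted p = 0.0152). The call was lost without knockout 1 (adjusted p = 0.132), without knockout 2 (adjusted p = 0.106) and without heterozygous 2 (adjusted p = 0.102), where the same edgeR test called 0 genes in all, although 1450, 1393 and 1257 genes had an unadjusted p under 0.05. The share of each column's total in reads assigned to no gene separated the groups as well, at 44.3%, 41.7% and 49.0% in knockout 1, 2 and 3, against 56.1%, 51.6% and 54.2% in heterozygous 1, 2 and 3. Reads that aligned to more than 1 place made up 17.6% to 19.8% in knockout-labelled libraries and 21.8% to 23.8% in heterozygous-labelled ones. The part of these shares in the Anxa4 difference was not tested.

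The sequences upstream of Anxa4 are shown because RefSeq gives the gene 2 start sites, and the table does not tell from which of them the added reads came. The 250 bases before each start are printed 5′ to 3′ on the minus strand (RefSeq, GRCm38.p6). The upstream start follows chr6:86793585-86793834 and the inner start, inside the gene, follows chr6:86775115-86775364. The 250 bases before the RefSeq start of Anxa2, the member with the next largest log2 fold change, are set beside them (plus strand, chr9:69453433-69453682). The GENCODE annotation starts Anxa2 at chr9:69453620, inside this window. The last bases printed for Anxa2, with the TATAAA match, thus lie within its GENCODE span. Capitals mark matches to 6 short promoter motifs on either strand.
Anxa4, upstream start: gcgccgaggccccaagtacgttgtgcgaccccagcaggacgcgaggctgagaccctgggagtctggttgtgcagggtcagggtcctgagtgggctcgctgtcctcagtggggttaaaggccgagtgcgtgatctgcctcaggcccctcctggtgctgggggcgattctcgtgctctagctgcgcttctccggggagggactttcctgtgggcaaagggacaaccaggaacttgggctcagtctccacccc
Anxa4, inner start: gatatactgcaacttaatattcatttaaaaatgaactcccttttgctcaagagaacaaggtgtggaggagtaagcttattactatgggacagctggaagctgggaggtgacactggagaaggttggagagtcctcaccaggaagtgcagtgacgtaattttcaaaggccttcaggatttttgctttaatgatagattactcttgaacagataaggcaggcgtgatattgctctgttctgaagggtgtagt
Anxa2: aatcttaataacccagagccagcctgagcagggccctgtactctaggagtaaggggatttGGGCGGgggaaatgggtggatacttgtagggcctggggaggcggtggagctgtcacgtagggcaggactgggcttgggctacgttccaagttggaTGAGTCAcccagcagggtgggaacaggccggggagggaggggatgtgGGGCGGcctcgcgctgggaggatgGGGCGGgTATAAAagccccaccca

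The motifs searched were the TATA box TATAAA, the CCAAT box, the GC box GGGCGG, the E-box CACGTG, the cyclic AMP element TGACGTCA and the AP-1 motif TGANTCA, of which the last 3 read the same on both strands. Neither Anxa4 sequence held any of them. The Anxa2 sequence held 1 TATAAA, 3 GGGCGG and 1 TGANTCA, and none of these overlapped. Among 32851 RefSeq promoter stretches of the same length, 12.4% held TATAAA, 33.8% CCAAT, 32.7% GGGCGG, 6.02% CACGTG, 1.55% TGACGTCA and 6.75% TGANTCA. The upstream Anxa4 stretch had 64.8% G and C and 13 CG dinucleotides, the inner one 42% and 2, and the median of all stretches was 52.4% and 6. A letter match is a description of the window and says nothing of binding there.

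**Figure D1:**
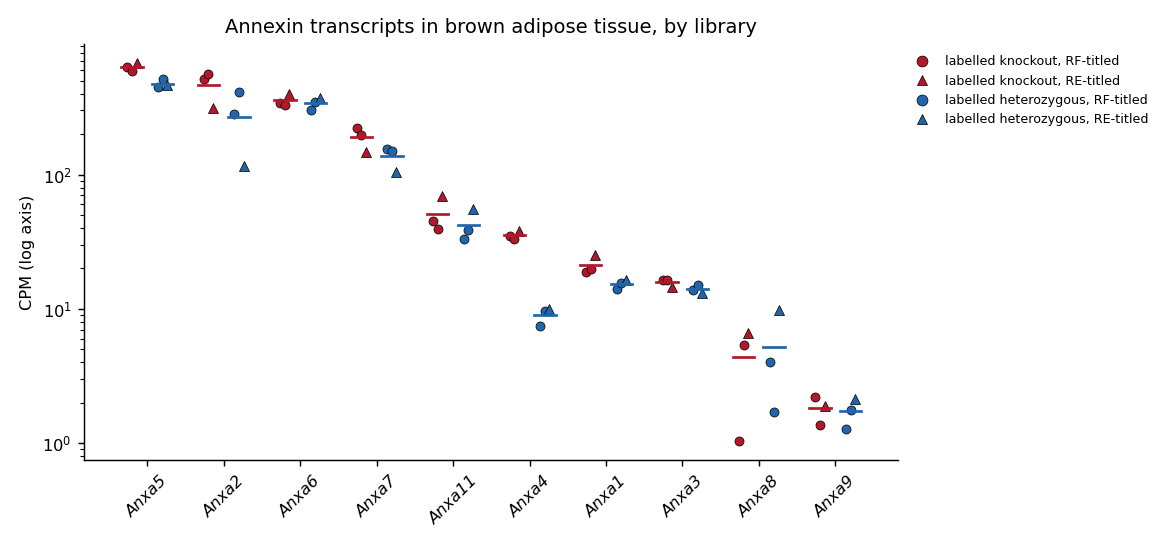
Level of each of the 10 annexins in CPM (log axis) in every library. Points are libraries (circles RF-titled, triangles RE-titled), bars are group means, and knockout-labelled libraries stand left of heterozygous-labelled ones. Anxa4 shows the widest gap between groups (33.4 to 38.1 against 7.41 to 10.1 CPM), while Anxa2 and Anxa8 show the widest spread within groups.

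The other 9 members showed smaller differences, most of them upward. Their log2 fold changes ran from -0.26 (Anxa8) to 0.77 (Anxa2), with a median of 0.28, against a median of 0.02 over all 13300 genes tested. Of the 9, 8 lay above 0, as did 53.1% of all genes tested. None of the 9 was called, so that 1 of 10 members was called in all, where 0.586% of all genes tested were called in either direction and 0.0526% as higher. Groups did not overlap for 3 of the 10 members, Anxa1, Anxa4 and Anxa5, all of them higher in the knockout-labelled libraries, where 18% of all genes tested had groups that did not overlap in either direction and 8.11% upward. Because Anxa4 chose the family in this same comparison, nothing is read from these counts. The log2 fold change of Anxa4 exceeded that of the highest other member by 1.20, and by 0.805 (without heterozygous 2) to 1.46 (without heterozygous 3) over the alternatives tried.

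**Figure D2:**
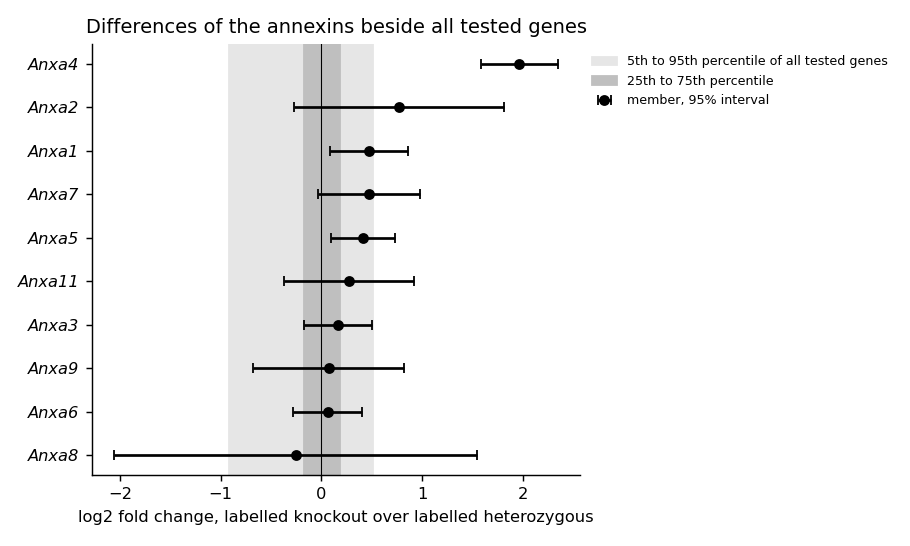
Log2 fold change of each annexin, knockout-labelled over heterozygous-labelled (points), with its 95% interval (bars, n = 3 libraries per group), over the range of all 13300 tested genes (pale band 5th to 95th percentile, -0.92 to 0.52; dark band 25th to 75th percentile, -0.17 to 0.18). Anxa4 at 1.97 lies clear of the other 9 points, which run from -0.26 to 0.77.

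Ratios between members within a library do not depend on how libraries are scaled, and Anxa4 was set against its relatives in this way. For every 100 reads of Anxa5 there were 5.52, 5.67 and 5.61 reads of Anxa4 in knockout 1, 2 and 3, against 1.65, 1.88 and 2.16 in heterozygous 1, 2 and 3. For every 100 reads of Anxa6 there were 10.3, 10.1 and 9.54 reads of Anxa4 in knockout 1, 2 and 3, against 2.46, 2.76 and 2.697 in heterozygous 1, 2 and 3. For every 100 reads of Anxa7 there were 15.6, 16.8 and 26.0 reads of Anxa4 in knockout 1, 2 and 3, against 4.77, 6.39 and 9.69 in heterozygous 1, 2 and 3. For every 100 reads of Anxa11 there were 77.3, 85.6 and 54.7 in knockout 1, 2 and 3, against 22.5, 25.1 and 18.2 in heterozygous 1, 2 and 3. The groups did not overlap in these 4 ratios. They did overlap against Anxa2, with 6.76, 5.996 and 12.2 reads of Anxa4 per 100 in knockout 1, 2 and 3, against 2.63, 2.34 and 8.65 in heterozygous 1, 2 and 3, where the RE-titled library was the highest of each group. Reads of all 10 annexins together summed to 1827, 1790 and 1691 CPM in knockout 1, 2 and 3, against 1261, 1506 and 1166 CPM in heterozygous 1, 2 and 3. Anxa4 made up 2.01% ± 0.21 of those reads in knockout-labelled libraries and 0.697% ± 0.146 in heterozygous-labelled ones (SD, n = 3 each), so most of the difference in the sum lay in the more abundant members.

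Levels can be compared between genes only per length, and reads were therefore divided by the union of each gene's exons in GENCODE M21. On this scale (CPM per kb) Anxa5 was highest in both groups, at 356 ± 25.2 in knockout-labelled libraries and 268 ± 18.6 in heterozygous-labelled ones (SD, n = 3 each). Anxa2 and Anxa6 came next and overlapped each other in the knockout-labelled libraries (124 ± 35.3 and 122 ± 12.8), and Anxa7 and Anxa11 followed. Anxa4 held place 6 of 10 in the knockout-labelled libraries, at 7.63 ± 0.516, next to Anxa1 at 7.33 ± 1.21, from which it did not differ beyond their spread. In the heterozygous-labelled libraries Anxa4 held place 9, at 1.95 ± 0.306, within the spread of Anxa8 (2.76 ± 2.21) and above Anxa9 (0.831 ± 0.204). With the longest protein-coding transcript as the length, an alternative chosen after seeing the data, Anxa4 kept place 6 in the knockout-labelled libraries and took place 8 in the heterozygous-labelled ones.

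Anxa1 is the member known as a secreted ligand: it is induced by glucocorticoids and dampens inflammation through formyl peptide receptors. The gene lies at chr19:20373428-20390944. Anxa1 stood at 18.7, 19.98 and 25.3 CPM in knockout 1, 2 and 3, against 14.03, 15.6 and 16.5 CPM in heterozygous 1, 2 and 3. All 3 knockout-labelled values lay above all 3 others, and the log2 fold change was 0.47 (SE 0.166, 95% interval 0.0833 to 0.86), with 0.37 among RF-titled libraries and 0.60 for the RE-titled pair. Reads of its receptor genes were almost missing: Fpr1 did not exceed 0.0923 CPM in any library and Fpr2 did not exceed 0.224 CPM, both too low to be tested.

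Anxa2 is known for its complex with S100A10, which holds plasminogen and its activators at the cell surface and links membranes to actin. The gene lies at chr9:69453620-69491795, and 98 bp of its exons are shared with the antisense gene Gm16144. Anxa2 stood at 515, 557 and 311 CPM in knockout 1, 2 and 3, against 282, 411 and 116 CPM in heterozygous 1, 2 and 3. The groups overlapped, and the RE-titled library was the lowest of its group in both. The log2 fold change was 0.77 (SE 0.443, 95% interval -0.27 to 1.82), with 0.65 among RF-titled libraries and 1.42 for the RE-titled pair. It was 1.21 without heterozygous 2 and 0.41 without heterozygous 3. With the prefix in the fit it was 0.89 with an SE of 0.213 and was not called (edgeR adjusted p = 0.0739).

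Anxa5 binds phosphatidylserine and is the protein used in the laboratory to stain dying cells. The gene lies at chr3:36448923-36475894. Anxa5 stood at 631, 589 and 678 CPM in knockout 1, 2 and 3, against 449, 513 and 466 CPM in heterozygous 1, 2 and 3. The groups did not overlap, and the log2 fold change was 0.41 (SE 0.137, 95% interval 0.0913 to 0.731), with 0.35 among RF-titled libraries and 0.54 for the RE-titled pair.

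Anxa6, a double-length annexin tied to caveolae and cholesterol handling, lies at chr11:54979108-55033445. It stood at 339, 331 and 399 CPM in knockout 1, 2 and 3, against 302, 349 and 373 CPM in heterozygous 1, 2 and 3. The groups overlapped almost fully, and the log2 fold change of 0.06 (SE 0.148, 95% interval -0.28 to 0.41) changed sign without knockout 3 (-0.04) and without heterozygous 1 (-0.02). It was 0.04 among RF-titled libraries and 0.10 for the RE-titled pair. Anxa6 was thus the abundant member with the smallest difference, and that interval leaves room for a change of up to 0.41 on the log2 scale.

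Anxa7 and Anxa11 carry long tails that bind the calcium sensor ALG-2, the product of Pdcd6. Anxa7, first described as a protein that fuses secretory granules, lies at chr14:20455260-20480133. It stood at 223, 198 and 146 CPM in knockout 1, 2 and 3, against 156, 151 and 104 CPM in heterozygous 1, 2 and 3. Only knockout 3 fell within the range of the heterozygous-labelled libraries. The log2 fold change was 0.47 (SE 0.217, 95% interval -0.04 to 0.979), with 0.46 among RF-titled libraries and 0.49 for the RE-titled pair. With the prefix in the fit it was 0.47 (SE 0.101) and was not called (edgeR adjusted p = 0.0589). Anxa11, which is known from neurons as a tether that carries RNA granules on lysosomes, lies at chr14:25842156-25886804 and shares 113 bp of exons with the antisense gene Anxa11os. It stood at 45.03, 39.0 and 69.6 CPM in knockout 1, 2 and 3, against 32.9, 38.4 and 55.4 CPM in heterozygous 1, 2 and 3. The groups overlapped, the RE-titled library was the highest of each group, and the log2 fold change was 0.28 (SE 0.275) and -0.02 without knockout 3. Within the prefixes it was 0.23 among RF-titled libraries and 0.33 for the RE-titled pair. With the prefix in the fit it was 0.27 with an SE of 0.113 and was not called (edgeR adjusted p = 0.27).

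The 3 remaining members were among the lowest. Anxa3, known from neutrophils and blood vessel growth and placed at chr5:96793339-96845966, ran from 14.4 to 16.4 CPM in the knockout-labelled libraries and from 13.2 to 15.1 CPM in the heterozygous-labelled ones (log2 fold change 0.17, SE 0.144), with 0.18 among RF-titled libraries and 0.13 for the RE-titled pair. Anxa8, an annexin of stratified epithelia at chr14:34085981-34100571, had 1.03, 5.38 and 6.65 CPM in knockout 1, 2 and 3, against 4.05, 1.71 and 9.78 CPM in heterozygous 1, 2 and 3. Its values were scattered in both groups, and the log2 fold change of -0.26 (SE 0.768) became 0.21 without knockout 1 and 0.60 without heterozygous 3. The log2 difference was -0.08 among RF-titled libraries (0.16 in an edgeR fit of those 4) and -0.53 for the RE-titled pair. Anxa9, an atypical member that lacks working calcium sites in its core, lies at chr3:95296096-95307176. It ran from 1.37 to 2.20 CPM in the knockout-labelled libraries and from 1.28 to 2.12 CPM in the heterozygous-labelled ones (log2 fold change 0.07, SE 0.321). That difference was -0.08 without knockout 1 and -0.10 without heterozygous 1, and 0.16 among RF-titled libraries and -0.13 for the RE-titled pair. The 95% intervals, -2.06 to 1.55 for Anxa8 and -0.68 to 0.823 for Anxa9, show how little these low counts can resolve.

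The genes beside Anxa4 on chromosome 6 had log2 fold changes near 0 or below it. Of 7 protein-coding genes of the count table within 250 kb of the gene, 6 were tested and the remaining one, Asprv1, was too low. Their log2 fold changes ran from -0.37 (Gmcl1, whose end lies 3457 bp from Anxa4) to 0.13 (Pcbp1). Snrnp27 was at -0.20, Aak1 at -0.04, Nfu1 at -0.01 and Mxd1 at 0.005. None was called by edgeR, 0 had an unadjusted p under 0.05, and the groups overlapped in all 6. Over all genes tested, 0.586% were called, 12.1% had an unadjusted p under 0.05 and 18% had groups that did not overlap. Counts of 0 among 6 genes therefore do not set the neighbours apart. Gmcl1 stood at 14.6, 13.7 and 10.01 CPM in knockout 1, 2 and 3, against 18.9, 16.0 and 14.4 CPM in heterozygous 1, 2 and 3.

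The genes whose profile over the 6 libraries was most like that of Anxa4 came from other families. Likeness was the root mean square difference between log2 CPM profiles, each centred on its own mean, among the other 11524 genes averaging 1 or more in log2 CPM. The closest was Cbr3, a carbonyl reductase (0.21), followed by Mmp28, the secreted metalloproteinase epilysin (0.38), the RNA 4631405J19Rik (0.39), Kcng4, a modifying subunit of potassium channels (0.40), and Nudt4, a phosphatase of inositol pyrophosphates (0.45). The nearest relative in the family was Anxa1 (0.76), and the farthest was Anxa8 (1.55). Cbr3 stood at 9.72, 10.03 and 16.4 CPM in knockout 1, 2 and 3, against 2.19, 2.87 and 3.51 CPM in heterozygous 1, 2 and 3. Kcng4 stood at 16.7, 7.96 and 21.2 CPM in knockout 1, 2 and 3, against 3.15, 4.84 and 3.88 CPM in heterozygous 1, 2 and 3. Groups did not overlap in these 5 genes, which is what the measure selects for.

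**Figure D3:**
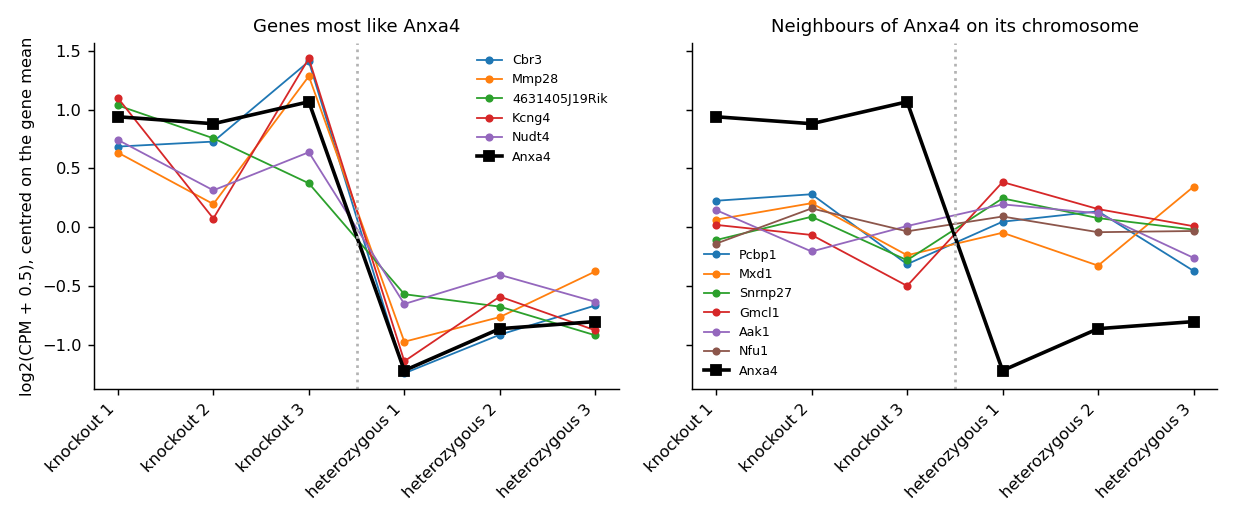
Log2(CPM + 0.5) of Anxa4 (black squares) in each library, centred on its own mean, with the 5 genes most like it (left panel) and its 6 tested neighbours on the chromosome (right panel). Lines only join the values of 1 gene, and the dotted line parts the 3 knockout-labelled from the 3 heterozygous-labelled libraries. The left-hand genes follow the step of Anxa4, while the neighbours stay near 0 in both groups.

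Of 17 genes for proteins that bind annexins, 14 were tested and none was called over all genes tested (edgeR; 0 by DESeq2 and 0 by limma-voom, and 3 with an unadjusted p under 0.05). Over all genes tested, 5.8% were called by DESeq2 and 1.46% by limma-voom, and 12.1% had an unadjusted p under 0.05. Of the 14, 10 lay above 0, with a median log2 fold change of 0.07, against 0.02 over all genes. The lowest p values belonged to the S100 partners of annexins A1 and A2. S100a11, whose product binds annexin A1, stood at 185, 175 and 182 CPM in knockout 1, 2 and 3, against 148, 137 and 99.8 CPM in heterozygous 1, 2 and 3 (log2 fold change 0.50, SE 0.167, edgeR adjusted p = 0.256). S100a10, the partner of Anxa2, stood at 111, 126 and 112 CPM in knockout 1, 2 and 3, against 103, 79.2 and 73.9 CPM in heterozygous 1, 2 and 3 (log2 fold change 0.44, SE 0.158, edgeR adjusted p = 0.293). In both genes the groups did not overlap, as in 18% of all genes tested, and the differences did not pass the threshold. With the muscle score described further on in the fit, S100a11 was at 0.08 (SE 0.346) and S100a10 at -0.10 (SE 0.285), and neither was called. The score did not overlap between the groups, so that fit separates muscle content from genotype poorly. S100b, a calcium sensor also made by fat cells (log2 fold change 0.41, edgeR adjusted p = 0.387), and Plat, the tissue plasminogen activator (0.38, edgeR adjusted p = 0.635), came next. The partners of Anxa7 and Anxa11 lay nearer 0: Pdcd6 at -0.06, its relative Pef1 at 0.30, the calcium sensor sorcin (Sri) at -0.15 and S100a6 at 0.17, none of them called. The groups did not overlap for Sri either, which was lower in each knockout-labelled library. It stood at 49.9, 49.9 and 47.1 CPM in knockout 1, 2 and 3, against 59.1, 53.2 and 50.8 CPM in heterozygous 1, 2 and 3.

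**Figure D4:**
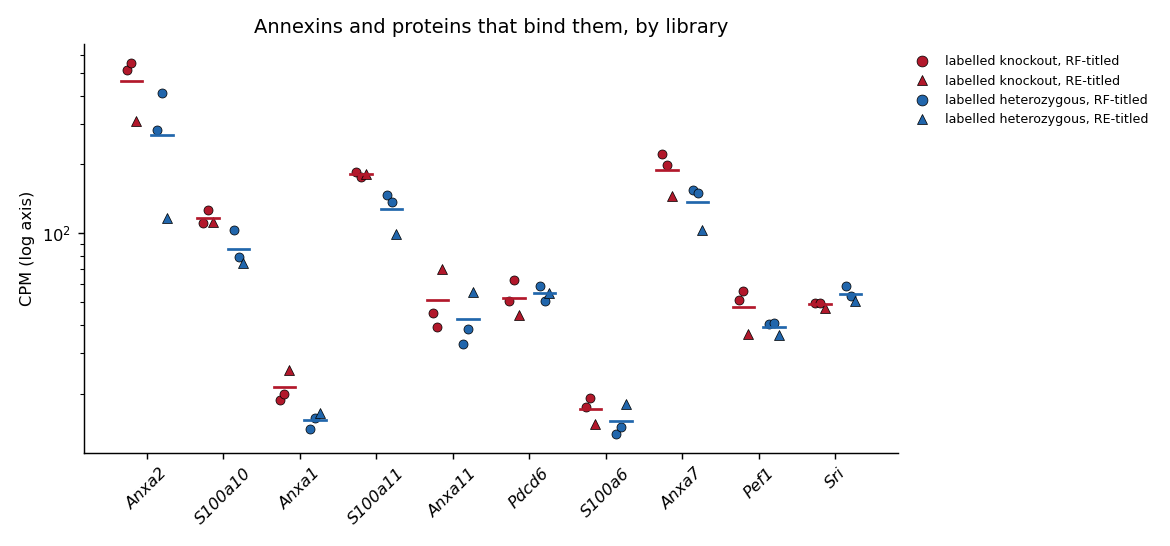
Level in CPM (log axis) of Anxa2, Anxa1, Anxa11 and Anxa7 and of genes for proteins that bind them, in every library (circles RF-titled, triangles RE-titled, bars group means), with knockout-labelled libraries left of heterozygous-labelled ones. S100a10 and S100a11 are higher in each knockout-labelled library than in each heterozygous-labelled one, and Sri is lower in each. The groups overlap for Pdcd6, S100a6 and Pef1.

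Genes of membrane repair and caveolae, processes in which annexins A1, A2, A5 and A6 are known to act, were tested gene by gene. Of the 14, none was called over all genes tested by edgeR and 0 by limma-voom. DESeq2 called 2, where it called 5.8% of all genes. In the edgeR test 3 had an unadjusted p under 0.05, against 12.1% of all genes. The 14 genes had a median log2 fold change of 0.14, with 10 of 14 above 0. The 2 genes with the lowest p lay below 0 and are known from striated muscle. Trim72, which seals muscle membrane, stood at 11.2, 6.75 and 5.40 CPM in knockout 1, 2 and 3, against 14.9, 45.2 and 50.1 CPM in heterozygous 1, 2 and 3 (log2 fold change -2.24, SE 0.486, edgeR adjusted p = 0.0825). Cav3, the muscle caveolin, was at -2.45 (SE 0.541, edgeR adjusted p = 0.0849). When the muscle score entered the fit, Trim72 was at 0.27 (SE 0.376) and Cav3 at -0.03 (SE 0.616). The limit of that fit given for the S100 genes holds here too. Ehd1, a membrane-shaping ATPase (0.38, edgeR adjusted p = 0.357), and Dysf, the repair protein dysferlin (0.46, edgeR adjusted p = 0.483), lay above 0 and did not pass.

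Other families that bind membranes through calcium, the copines, extended synaptotagmins, synaptotagmins, protein kinase C and their like, showed no call among 13 tested of 20 listed (edgeR; 0 by DESeq2 and 0 by limma-voom, and 2 with an unadjusted p under 0.05, against 12.1% of all genes). Their median log2 fold change was -0.18, with 5 of 13 above 0. Prkca, protein kinase C alpha, stood at 17.6, 12.2 and 12.6 CPM in knockout 1, 2 and 3, against 20.2, 24.4 and 19.2 CPM in heterozygous 1, 2 and 3 (log2 fold change -0.59, SE 0.194, edgeR adjusted p = 0.239). Rasa4, a Ras regulator (-0.44, edgeR adjusted p = 0.408), Syt11 (-0.36, edgeR adjusted p = 0.499) and the copine Cpne8 (0.25, edgeR adjusted p = 0.668) did not pass either.

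Markers of other cell types that the dissected depot could hold were read beside these values. In bulk tissue, fewer cells of a type and less RNA per cell cannot be told apart. Epithelial markers, of the tissue from which Anxa4 is best known, were near 0: the 10 genes summed to 1.13 to 2.08 CPM in knockout-labelled libraries and to 0.857 to 1.28 CPM in heterozygous-labelled ones. Cldn4 had no read in any library, Epcam had reads in heterozygous 3 alone, and Krt7 was the highest, at 0.624 to 1.57 CPM in knockout-labelled libraries and 0.252 to 0.461 CPM in heterozygous-labelled ones. Krt7, the 1 epithelial marker tested, was thus higher in each knockout-labelled library, as were 8.11% of all genes tested. Its log2 fold change was 1.37 (SE 0.484), and it was not called (edgeR adjusted p = 0.286). Mesothelial markers, led by Lrrn4 and with Upk1b at 0, summed to 3.23 to 4.25 CPM in knockout-labelled libraries and 3.38 to 7.63 CPM in heterozygous-labelled ones. Neutrophil markers, led by Csf3r, summed to 1.05 to 2.02 CPM in knockout-labelled libraries and 0.907 to 1.49 CPM in heterozygous-labelled ones.

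Apart from skeletal muscle, the sums of the other marker lists overlapped between the groups, with no listed gene at 0. Macrophage markers, led by Lyz2, summed to 181 to 323 CPM in knockout-labelled libraries and 125 to 305 CPM in heterozygous-labelled ones, and endothelial markers, led by Cdh5, to 724 to 744 CPM in knockout-labelled and 613 to 770 CPM in heterozygous-labelled libraries. Fibroblast markers, led by Col3a1, summed to 1112 to 1573 CPM in knockout-labelled libraries and 1035 to 1599 CPM in heterozygous-labelled ones. Smooth muscle and pericyte markers, led by Cspg4, summed to 376 to 439 CPM in knockout-labelled libraries and 428 to 430 CPM in heterozygous-labelled ones. Schwann cell markers, led by Pmp22, summed to 250 to 312 CPM in knockout-labelled libraries and 192 to 271 CPM in heterozygous-labelled ones. Adipocyte markers, led by Fabp4, summed to 17845 to 25585 CPM in knockout-labelled libraries and 18905 to 26062 CPM in heterozygous-labelled ones, and brown adipocyte markers, led by Ucp1, to 7485 to 11725 CPM in knockout-labelled and 7414 to 9943 CPM in heterozygous-labelled libraries. Of the 9 brown adipocyte markers, 3 had log2 fold changes above 0 and 6 below 0, with a median of -0.16. Elovl3, a fatty acid elongase of brown fat named here after its value was seen, was the 1 called gene of these marker lists. Over all genes tested, 0.586% were called. Elovl3 stood at 182, 161 and 216 CPM in knockout 1, 2 and 3, against 86.0, 98.9 and 88.3 CPM in heterozygous 1, 2 and 3 (log2 fold change 1.03, SE 0.15, edgeR adjusted p = 0.0418). Its call was lost without knockout 1 (edgeR adjusted p = 0.141), knockout 2 (0.107), heterozygous 2 (0.171) or heterozygous 3 (0.146) and with the muscle score in the fit (1.0).

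The muscle markers, led by Myh4, differed most, and moved opposite to Anxa4. None of the 26 was called by edgeR at an adjusted p of 0.05, where their adjusted p ran from 0.0715 to 0.118. All 26 had an unadjusted p under 0.05, against 12.1% of all genes tested. The muscle score (log2 CPM averaged over the 26 markers) was 7.74, 7.002 and 6.97 in knockout 1, 2 and 3, against 8.39, 9.61 and 10.02 in heterozygous 1, 2 and 3. With that score as a covariate, the log2 fold change was 2.41 for Anxa4 (SE 0.375), 0.54 for Anxa1 (SE 0.423) and 0.51 for Anxa5 (SE 0.33). For Anxa2 it was 0.43 (SE 1.03), for Anxa6 0.31 (SE 0.349) and for Anxa7 0.27 (SE 0.482). It was 0.82 (SE 0.64) for Anxa11 and 1.06 (SE 0.662) for Anxa9 there, against 0.28 and 0.07 without the score. No gene passed in that fit (edgeR; 261 of 13300 had an unadjusted p under 0.05), and the score itself did not overlap between the groups.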

How the data were processed

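The authors deposited a table of raw read counts per gene symbol, 1 column per library, for brown adipose tissue of 3 mice per genotype. Per the submitters' processing notes, the build was mm10 and the tools were HTSeq, edgeR, STAR 2.7.2b, Bowtie2 2.3.4.3, Trim Galore and SAMtools 1.9, without roles. Annotation and strandedness of the counting: not given in the sources used here. If strand was ignored, sense and antisense reads of overlapping genes cannot be told apart.

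The 5 lines naming no gene (41.7% to 49.0% of column totals in knockout-labelled and 51.6% to 56.1% in heterozygous-labelled libraries) were left out. Groups follow the genotype label, and replicate numbers follow accession order and pair nothing. Every pair of libraries differed by more than sampling noise (chi-square divided by its degrees of freedom, 42 to 329). Counts were tested with edgeR 4.0.16 (R 4.3.3): TMM scaling, filterByExpr (minimum count 10, minimum total 15; 13300 genes kept), robust quasi-likelihood fit on genotype, Benjamini-Hochberg adjustment at 0.05 over all genes. SE came from the F statistic. The test was tried on simulated counts with the same spread for every gene, which says nothing of its error rate in these libraries.

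The members and lists were chosen with earlier results of these data known. Named genes were all annexins, the targeted gene, called genes and the 4 smallest p of each related list, genes within 250 kb of Anxa4, the 5 genes most like it, and the leading and absent genes of each marker list. Pdcd6, Pef1, Sri, S100a6, Fpr1, Fpr2, Elovl3, Capn2, Capns1 and Cav2 were added after their values were seen. Alternatives were other scalings, filters and tools (DESeq2 1.42.0, limma 3.58.1 voom), a threshold of 0.1, covariates, and libraries left out. The title prefix was also tested with genotype in the fit. GENCODE M21 on GRCm38 gave positions and lengths (22758 symbols matched directly, 932 through an older symbol). Cavin1 and Adgre1 were read under their older symbols. RefSeq gave 11 promoter stretches for 8 of the 10 members.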

Additional observations from a re-analysis of the deposited data

How the results depend on the processing

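The number of genes called over all genes tested was 78 and moved strongly with the setting: 311 genes with the prefix of the titles as a covariate, 132 in the RF-titled libraries alone, 0 with the muscle score as a covariate, 771 by DESeq2, 194 by limma-voom with quality weights and 500 at an adjusted p of 0.1. Leaving out 1 library gave 0 to 400 (0 without knockout 1, knockout 2 or heterozygous 2, 8 without heterozygous 3, 111 without knockout 3 and 400 without heterozygous 1). The number of annexins called was 1 (Anxa4) and became 0 with the muscle score as a covariate; it was 0 to 1 with 1 library left out. In membrane repair and caveolae, 0 genes were called, against 2 by DESeq2 and 2 at an adjusted p of 0.1, and 0 to 2 with 1 library left out (2 without heterozygous 1). Annexin partners and the other calcium-dependent families had 0 calls under every alternative run. The log2 fold change of Anxa4 lay between 1.85 and 2.41 over all alternatives, and that of the highest other member between 0.598 and 1.21; members above 0 numbered 7 to 10 of 10. No paired analysis was possible because the labels give the libraries of the groups no shared replicate numbers. Depth limits the low members Anxa8 (23 to 212 reads a library) and Anxa9 (24 to 49 reads).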

Other observations

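Some annexins followed the title prefix of the libraries in both groups; what the prefix stands for is not in the labels. In a fit with genotype and prefix, added after seeing the data, the differences of 3 annexins between RE-titled and RF-titled libraries passed. Anxa2 was lower in RE-titled libraries (log2 difference -1.16, SE 0.236, edgeR adjusted p = 0.0304). Its RE-titled library stood at 0.58 of the mean of the RF-titled ones in the knockout-labelled group and at 0.336 in the heterozygous-labelled group. Anxa7 was lower too (-0.54, SE 0.11, edgeR adjusted p = 0.0276), at 0.694 in the knockout-labelled and 0.678 in the heterozygous-labelled group. Anxa11 was higher (0.68, SE 0.117, edgeR adjusted p = 0.0184), at 1.66 in the knockout-labelled and 1.55 in the heterozygous-labelled group. Anxa8, at 2.07 in the knockout-labelled and 3.39 in the heterozygous-labelled group, did not pass (edgeR adjusted p = 0.201), nor did Anxa4, at 1.12 in the knockout-labelled and 1.18 in the heterozygous-labelled group (edgeR adjusted p = 0.408).

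Each prefix call rests on 1 RE-titled library per group. The same 3 annexins were called by DESeq2, by limma-voom and under both other scalings. All 3 calls were lost without knockout 1, knockout 3 or heterozygous 3, while 2 were called without knockout 2 (Anxa7, Anxa11) and 2 without heterozygous 1 or heterozygous 2 (Anxa2, Anxa11). Over all genes the 1243 calls became 37 without knockout 3, 75 without knockout 1, 414 without heterozygous 2, 740 without knockout 2 and 1944 by DESeq2.

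Of 14 genes of membrane repair and caveolae 2 were called between the prefixes, against 9.35% of all genes tested, so the list did not stand out. Capn2, the catalytic subunit of a calcium-activated protease, was lower in RE-titled libraries (-0.999, SE 0.125, edgeR adjusted p = 0.00941), while Capns1, the small subunit it works with, was at 0.10 (edgeR adjusted p = 0.617). Cav2, a caveolin, was higher (0.69, SE 0.15, edgeR adjusted p = 0.0346).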
